A study of Mus musculus with 180 samples.

Results

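Slc5a2, Slc5a12, Slc22a6, Slc34a1, Lrp2, Cubn, Slc12a1, Umod, Slc12a3 and Kl are 10 genes of the kidney tubule: transporters and endocytic receptors of the proximal tubule, the main salt cotransporters of the thick ascending limb and of the distal convoluted tubule, the urinary protein uromodulin, and the hormone and co-receptor Klotho. They were taken by symbol from the table of all genes. Of the 10 genes 9 had a row among 13820, and Slc5a2 is not analysed here. The 9 genes are 5 of the proximal tubule (Slc5a12, Slc22a6, Slc34a1, Lrp2 and Cubn), the thick ascending limb genes Slc12a1 and Umod, and the distal genes Slc12a3 and Kl.

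RNA was read by 3′ tag sequencing in 15 tissues of each of 12 female mice of 6 weeks, perfused before collection, which made 180 libraries. Wild-type C57BL/6J mice 1 to 4 received PBS, and C57BL/6J mice 5 to 8 received 5 mg/kg lipopolysaccharide (LPS), the endotoxin of gram-negative bacteria. Mice 9 to 12 carried the Tnf allele B6.129S-Tnftm1Gkl/J, which removes tumour necrosis factor (TNF), and received the same dose of LPS; they are called TNFKO LPS. All tissues were collected 12 hours after injection. Every TNFKO mouse received LPS, so a difference between TNFKO LPS and LPS mice cannot be told apart from a difference of genotype or strain background that was there before LPS.

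The nephron filters blood in the glomerulus and then recovers most of the filtrate along its tubule. The proximal tubule takes up glucose, amino acids, phosphate and filtered proteins, the thick ascending limb and the distal convoluted tubule recover salt, and the collecting duct sets the final urine. Klotho is made by tubule cells and lets the bone hormone FGF23 act on the kidney, where it lowers phosphate uptake and active vitamin D. Endotoxin shock is widely used as a model of septic kidney injury.

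Kidney libraries held 1084176 to 2106453 counts, and 1 count was worth a signal of 0.473 to 0.924. Signal is the authors' scaled value, and it is the unit of all levels below. Markers of kidney tissue other than these genes (9 of 10 with a row) summed to 12845 to 15825 in PBS kidneys and to 7153 to 9760 in the others. The adrenal gland sits on the kidney: its cortex markers (3 of 5 with a row) summed to 7.68 to 11.4 in PBS kidneys, but to 222, 702, 16.1 and 41.6 in LPS mice 5 to 8 and to 115 in TNFKO LPS mouse 9. Their part in the results was not tested, and for the 9 genes and the lists of segments, endocytosis, Klotho and transcription factors in kidney, the count in the direction most genes took is also given without mice 5, 6 and 9. Tnf itself had a kidney signal of 5.31 in PBS, 7.45 in LPS and 28.4 in TNFKO LPS mice, so its 3′ tags were higher in the libraries labelled TNFKO. The part of Tnf that this allele lacks is not given in the labels, and a 3′ tag outside it does not check them. The libraries of 1 group came from separate mice. The inguinal lymph node libraries of PBS mice and the bone marrow libraries of TNFKO LPS mice 10 and 11 stood apart in signal of these genes, as described below.

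In kidney, LPS lowered 8 of the 9 genes and raised none at a Benjamini-Hochberg adjusted p below 0.05 in limma, the linear-model test used throughout. Over all 13242 genes tested in kidney 21.9% were called lower and 16.2% higher. The median log2 change, on the scale of signal + 1, was -2.29 over the 9 genes and -0.05 over all genes tested. No gene of the 9 was higher at an unadjusted p below 0.05 either, nor in edgeR on the recovered counts, which also called 8 lower. For the 8 called genes every LPS library lay below every PBS library, as for 19.4% of all genes (14.3% had every LPS library above). Without mice 5, 6 and 9 the count was again 8. Among PBS mice the SD of the 9 genes was 5.15% to 11.2% of the mean. The summed signal of 5 tubule injury markers (Havcr1, Lcn2, Krt20, Vcam1 and Sox9) was 244 to 256 in PBS, 2095 to 3856 in LPS and 841 to 1274 in TNFKO LPS kidneys, and its part in these falls was not tested. Sums of other marker lists also lay apart in LPS and PBS kidneys without overlap. Endothelium markers (5 of 5 with a row) summed to 1959 to 2340 in PBS, 2696 to 3062 in LPS and 2475 to 2764 in TNFKO LPS kidneys. Fibroblast markers (5 of 5) summed to 639 to 719, 737 to 828 and 827 to 995 in the same order. Macrophage and leukocyte markers (5 of 5) summed to 78.2 to 90.4 in PBS and to 67.4 to 77 in LPS kidneys. Within each of these lists genes went both ways by LPS. Of the endothelium genes 2 were called higher and 1 lower (median 0.24). In the fibroblast list (median -0.14) and the macrophage list (median -0.21) 1 gene was higher and 1 lower. The sums for liver (828 to 895 in PBS, 1682 to 2128 in LPS) and intestine (154 to 175, 328 to 619) were higher. Those for choroid plexus (448 to 534, 176 to 222) and fat (331 to 409, 262 to 285) were lower. Of 8 liver genes, however, 1 was called higher and 2 lower (median 0.00), and of 5 intestine genes 2 higher and 1 lower (median 0.17). The intestine list shares Krt20 with the injury markers. The choroid plexus list (3 genes tested, 3 lower) holds Folr1, which is also counted with the endocytosis partners below. The part of all these lists in the falls was not tested. In bulk tissue, fewer cells of a type and less RNA per cell cannot be told apart.

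**Figure D1:**
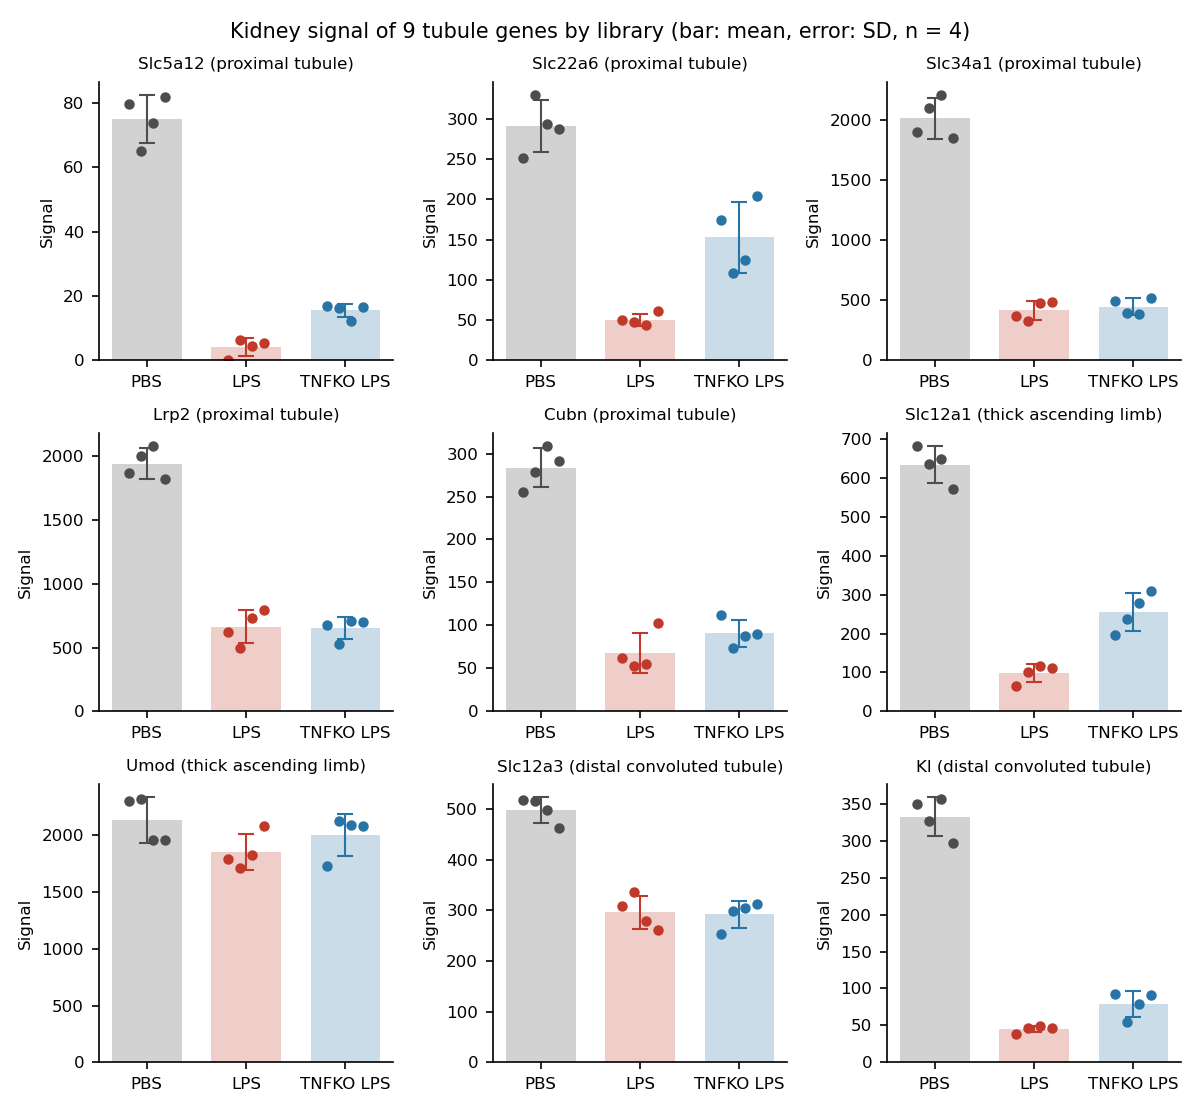
Kidney signal of the 9 genes in each library of PBS, LPS and TNFKO LPS mice (points), with the group mean (bar) and SD (error bar, n = 4), on linear axes from 0. For 8 genes every LPS library lies below every PBS library, and for Umod the groups overlap.

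Among the proximal tubule genes, the phosphate cotransporter Slc34a1, which recovers most filtered phosphate (mm10 chromosome 13, 55398187 to 55415592), had a signal of 1905, 2107, 2213 and 1850 in PBS mice 1 to 4. It read 374, 329, 477 and 489 in LPS mice 5 to 8. Every LPS library was below every PBS library. In TNFKO LPS mice 9 to 12 it read 493, 395, 383 and 523, which overlaps the LPS mice. The means were 2019 ± 170 (SD, n = 4), 417 ± 78.4 and 449 ± 69.9, and the fall was -2.29 (SE 0.11, limma adjusted p = 2.8e-14) in wild-type mice.

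The endocytic receptor megalin, Lrp2 (chromosome 2, 69424340 to 69586065, minus strand), pulls filtered proteins, vitamin carriers and drugs into proximal tubule cells. Its signal was 1863, 2003, 2080 and 1816 in PBS mice, and 625, 498, 730 and 793 in LPS mice. TNFKO LPS mice had 680, 525, 709 and 702, so the LPS groups of both genotypes lay together at about the same distance below PBS. The log2 change by LPS was -1.57 (SE 0.11, limma adjusted p = 2.7e-11), the smallest among the 5 proximal genes.

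Cubilin, Cubn (chromosome 2, 13276338 to 13491813, minus strand), the receptor for albumin and for vitamin B12 bound to intrinsic factor, works with megalin. It read 255, 278, 309 and 291 in PBS mice and 62, 52.5, 55.7 and 103 in LPS mice. In TNFKO LPS mice it read 112, 73.8, 88 and 89.8. LPS mouse 8 was the highest LPS library and lay within the TNFKO LPS range, while all LPS libraries stayed below PBS (-2.09, SE 0.16, limma adjusted p = 5.3e-11).

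The organic anion transporter OAT1, Slc22a6 (chromosome 19, 8618039 to 8628299), takes drugs and uraemic toxins from blood into the proximal tubule. PBS mice had 251, 330, 294 and 288, and LPS mice 50, 47.4, 44 and 61. TNFKO LPS mice had 175, 108, 125 and 204, above every LPS library and below every PBS library. The fall in wild-type mice was -2.50 (SE 0.15, limma adjusted p = 8.1e-13).

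The sodium-coupled lactate transporter Slc5a12 (chromosome 2, 110597298 to 110647779) had the largest fall. Its signal was 79.6, 65.2, 73.7 and 81.9 in PBS mice, and 0, 6.41, 4.4 and 5.54 in LPS mice. The 0 in LPS mouse 5 allows a signal of up to 2, that of 3 counts, and the other 3 LPS libraries rest on 6 to 10 counts. TNFKO LPS mice had 16.9, 16.4, 12.3 and 16.5. The log2 change by LPS was -4.24 (SE 0.38, limma adjusted p = 1.5e-09), and -3.57 without mouse 5.

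In the thick ascending limb, 1 of the 2 genes was called. The cotransporter NKCC2, Slc12a1 (chromosome 2, 125152505 to 125230002), which drives salt uptake there and is the target of loop diuretics, read 682, 636, 647 and 570 in PBS mice. It read 65.4, 101, 117 and 112 in LPS mice and 197, 238, 278 and 310 in TNFKO LPS mice. The 3 groups did not overlap, and the log2 change by LPS was -2.70 (SE 0.14, limma adjusted p = 6.5e-14).

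Uromodulin, Umod (chromosome 7, 119462711 to 119479282, minus strand), is secreted by the same cells and is the most abundant protein of normal urine. Its signal was 2301, 2321, 1961 and 1958 in PBS mice, and 1790, 1713, 1822 and 2085 in LPS mice. TNFKO LPS mice had 1728, 2121, 2086 and 2080. The groups overlapped, and the log2 change by LPS was -0.20 (95% confidence interval -0.38 to -0.03, adjusted p = 0.062 in limma), short of the threshold. It passed when LPS mouse 8, PBS mouse 3 or 4 or TNFKO LPS mouse 9 was left out (adjusted p = 0.021, 0.042, 0.043 and 0.045 in limma, with changes of -0.20 to -0.26). The interval thus leaves room for a fall of up to 0.38 and lies clear of the change of Slc12a1. Within each library the ratio of the Slc12a1 to the Umod signal was 0.274 to 0.33 in PBS mice, 0.0365 to 0.064 in LPS mice and 0.112 to 0.149 in TNFKO LPS mice. The ranges of this ratio did not overlap.

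The distal convoluted tubule cotransporter NCC, Slc12a3 (chromosome 8, 94329201 to 94366214), the target of thiazide diuretics, read 517, 516, 499 and 462 in PBS mice. It read 308, 336, 279 and 262 in LPS mice and 254, 298, 305 and 313 in TNFKO LPS mice. Both LPS groups lay below PBS and overlapped each other, and the log2 change of -0.75 (SE 0.09, limma adjusted p = 2e-07) was the smallest of the 8 that were called.

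Klotho, Kl (chromosome 5, 150952607 to 150993817), strongest in the distal convoluted tubule and also made in the proximal tubule, had a signal of 350, 327, 356 and 297 in PBS mice. LPS mice had 38.7, 46.1, 49.9 and 46.2, close to each other and far below PBS. TNFKO LPS mice had 92.7, 55.2, 78.6 and 91.8, above every LPS library. The mean fell from 332 ± 26.6 (SD, n = 4) to 45.2 ± 4.69, a log2 change of -2.85 (SE 0.13, limma adjusted p = 8.6e-15).

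The comparison of TNFKO LPS with LPS mice asks how far these levels differ when TNF is missing. It called 5 of the 9 genes higher and none lower, against 13.2% higher and 6.82% lower over all genes tested. No gene was lower at an unadjusted p below 0.05 either, nor in edgeR. Slc5a12 was higher by 2.03 (SE 0.38, limma adjusted p = 0.00037; 1.36 without LPS mouse 5), Slc22a6 by 1.54 (SE 0.15, 5.7e-08), Slc12a1 by 1.38 (SE 0.14, 1.3e-07) and Kl by 0.78 (SE 0.13, 0.00013). For these 4 genes every TNFKO LPS library lay above every LPS library, as for 13.2% of all genes (6.92% had every one below). Cubn was called in limma with 0.44 (SE 0.16, adjusted p = 0.045), but its groups overlapped. Its call was lost in edgeR (adjusted p = 0.12), after median-of-ratios rescaling (0.11), with a pseudocount of 0.25 (0.05), without a filter (0.051) and with 2 groups only (0.1), and also without each of 10 of the 12 mice left out singly. Without mice 5, 6 and 9 the 4 other genes remained called and Cubn was at 0.14 (adjusted p = 0.6 in limma). The split of calls over all genes moved with the scaling here, from 1749 higher and 903 lower to 1466 and 1207 after median-of-ratios rescaling and 1400 and 1270 in edgeR.

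For the other 4 genes no difference between the genotypes was called, and the intervals were narrow. The log2 difference was 0.11 for Slc34a1 (95% confidence interval -0.13 to 0.35), -0.01 for Lrp2 (-0.24 to 0.23), -0.02 for Slc12a3 (-0.20 to 0.17) and 0.11 for Umod (-0.06 to 0.29). The sign of the first 3 turned with the libraries or the scaling used, and without mice 5, 6 and 9 the values were -0.17, -0.25 and 0.17, none of them called. In the proximal tubule the ratio of the Slc22a6 to the Slc34a1 signal was 0.132 to 0.157 in PBS mice, 0.0922 to 0.144 in LPS mice and 0.274 to 0.39 in TNFKO LPS mice, above all libraries of both other groups. In the distal tubule the ratio of Kl to Slc12a3 was 0.633 to 0.713, 0.126 to 0.178 and 0.185 to 0.365 in the same order.

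Against PBS mice, TNFKO LPS mice still had 8 of the 9 genes lower, where 9% of all genes tested were called lower and 8.34% higher. None was higher, also at an unadjusted p below 0.05 and in edgeR, and the count without mice 5, 6 and 9 was again 8. Each of the 8 had every TNFKO LPS library below every PBS library, as had 11.8% of all genes (10.2% had every one above). This comparison shares its PBS mice with the first and its TNFKO LPS mice with the second. Slc22a6 stood at 52.7% of its PBS mean in TNFKO LPS mice (17.4% in LPS mice) and Slc12a1 at 40.4% (15.6%). Kl stood at 23.9% (13.6%) and Slc5a12 at 20.7% (5.44%). For Slc34a1 the shares were 22.2% and 20.7%, for Lrp2 33.7% and 34.1%, and for Slc12a3 58.7% and 59.4%. Umod was at 93.8% and 86.8% (TNFKO LPS against PBS -0.09, 95% confidence interval -0.27 to 0.08).

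**Figure D2:**
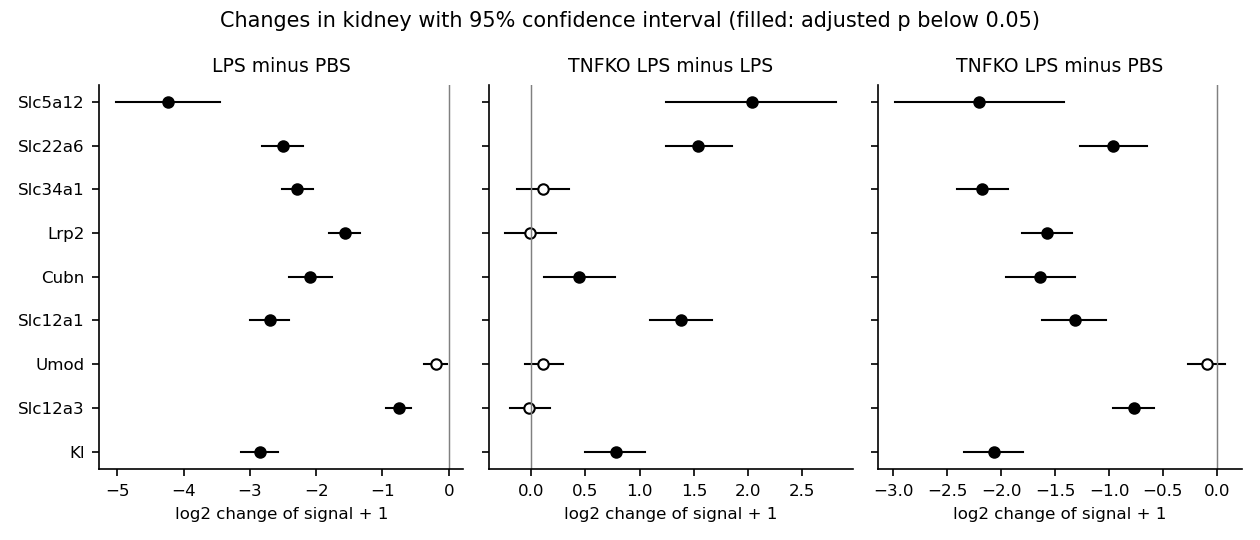
Log2 change of signal + 1 in kidney for each gene in the 3 comparisons, with 95% confidence intervals from limma; filled points have an adjusted p below 0.05, and the 3 axes differ in range. Umod is open in all 3 panels, and the intervals of Slc34a1, Lrp2 and Slc12a3 include 0 between the genotypes.

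Genes of the same segments that are not among the 9 were counted from fixed lists. For all the lists below, the shares over all genes tested in kidney were 21.9% lower and 16.2% higher by LPS. Between genotypes they were 13.2% higher and 6.82% lower in TNFKO LPS mice. Of 35 other proximal tubule transporters tested, 29 were lower and 2 higher in LPS than in PBS mice (median -1.34). The dicarboxylate transporter Slc13a3 fell from 309 ± 57.6 (SD, n = 4) to 28.7 ± 6.51 and the basolateral amino acid transporter Slc7a7 from 62.9 ± 7.65 to 6.11 ± 1.16. The sulfate transporter Slc13a1 rose instead, from 259 ± 25.7 to 377 ± 52.2 (0.54, limma adjusted p = 0.00018). In TNFKO LPS against LPS mice 19 of the 35 were higher and 2 lower (median 0.49). Slc13a2, a citrate transporter, was at 39.8 ± 10.1 against 6.98 ± 1.31, and the glucose exit transporter Slc2a2 at 108 ± 7.9 against 30 ± 18.7. Without mice 5, 6 and 9 the counts were 30 lower by LPS and 19 higher between genotypes.

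Of 10 proteins that work with megalin and cubilin in endocytosis, 8 were lower by LPS and 1 was higher (median -0.92; 7 lower without mice 5, 6 and 9). The scaffold Pdzk1 fell from 108 ± 21.3 (SD, n = 4) to 12.8 ± 2.38, the folate receptor Folr1 from 334 ± 36.4 to 111 ± 15.3, and the motor Myo6 from 186 ± 10.1 to 73.8 ± 5.94. The chaperone of megalin, Lrpap1, fell by 1.22 on the log2 scale. Amnionless, Amn, which carries cubilin to the cell surface, fell from 86.6 ± 4.84 to 45.6 ± 5.66, and the endosomal chloride exchanger Clcn5 from 45.2 ± 7.21 to 24.9 ± 7.1. The adaptor Dab2, which binds the tail of megalin, rose from 372 ± 28.1 to 786 ± 58.2 and was at 378 ± 45.8 in TNFKO LPS mice (-1.06 against LPS, limma adjusted p = 8.5e-09). Between genotypes 6 of the 10 were higher in TNFKO LPS mice (6 also without mice 5, 6 and 9), among them Pdzk1 (1.68) and Folr1 (1.01), and Dab2 was lower.

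In the thick ascending limb list 10 of 12 genes were lower by LPS and 1 higher (median -1.25). The potassium channel Kcnj1, which recycles potassium for Slc12a1, fell from 182 ± 6.69 (SD, n = 4) to 33.5 ± 21.2 and was at 151 ± 22.9 in TNFKO LPS mice. The growth factor precursor Egf fell from 1320 ± 75.1 to 291 ± 96.7 and was at 475 ± 67.3 in TNFKO LPS mice. The claudin Cldn3 rose from 21.5 ± 2.82 to 47.7 ± 11.1. Between genotypes 8 of 12 were higher and 1 lower. Without mice 5, 6 and 9 these counts were 10 lower and 7 higher.

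Of 18 distal convoluted tubule genes 11 were lower by LPS and 2 higher (median -0.56). The sodium pump subunit Fxyd2 fell from 2006 ± 122 (SD, n = 4) to 729 ± 49.2, and Klhl3, whose product marks the kinases that activate Slc12a3 for breakdown, from 81.2 ± 10.5 to 21.2 ± 6.24. Between genotypes 9 were higher and 3 lower, with Klhl3 at 59.1 ± 4.81 and the potassium channel subunit Kcnj16 at 209 ± 18.1 in TNFKO LPS mice against 117 ± 19.3. Of 13 collecting duct genes 10 were lower by LPS (median -1.21) and 8 higher in TNFKO LPS than in LPS mice. The water channel Aqp3 fell from 115 ± 5.56 to 36.3 ± 8.23, and the intercalated cell factor Foxi1 rose from 20.1 ± 1.63 to 32.1 ± 5.05. Without mice 5, 6 and 9 the distal counts were 11 and 9, and those of the collecting duct 11 and 8.

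Of 19 genes tested around Klotho, FGF23, phosphate and vitamin D, 10 were lower by LPS, as Kl was, and 4 higher. The median was -0.54, and 8 were lower without mice 5, 6 and 9. Over all genes 21.9% were lower and 16.2% higher, so the 4 higher ones are near the share of all genes. The parathyroid hormone receptor Pth1r fell from 235 ± 22.3 (SD, n = 4) to 97.2 ± 8.28, the second renal phosphate cotransporter Slc34a3 from 44.9 ± 7.07 to 12 ± 3.82, and the vitamin D receptor Vdr from 128 ± 6.62 to 72.6 ± 18.2. The phosphate exporter Xpr1 fell from 57.2 ± 15.9 to 28.9 ± 3.68. Another 3 phosphate importers rose: Slc20a1 from 22.9 ± 4.98 to 76.3 ± 17.2, Slc20a2 from 37.7 ± 4.28 to 59.8 ± 9.09, and Slc34a2 from 12.7 ± 1.79 to 34 ± 4.55. The FGF23 receptor Fgfr1, a partner of Klotho, was at 25.1 ± 5.48 and 28 ± 1.82 (0.18, adjusted p = 0.44 in limma). Of the other receptors of its family in the list, Fgfr3 (-1.14, limma adjusted p = 0.0046) and Fgfr4 (-0.73, 0.012) were lower. Fgfr2 (0.38, 0.15) was not called. Fgfr3 was low, at 5.98 ± 1.45 in PBS and 2.26 ± 1.01 in LPS mice. The shedding proteases of Klotho Adam10 (0.16, 0.23) and Adam17 (-0.18, 0.31) were not called either. The protease Bace1, also in the list, fell from 22.5 ± 3.59 to 12.4 ± 5.91 (-0.94, limma adjusted p = 0.0069).

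Between genotypes 6 of these 19 genes were higher and 4 lower (median -0.04), beside 13.2% and 6.82% of all genes in limma. Without mice 5, 6 and 9 there were 5 higher, and in edgeR 3, which is near the share of all genes. Leaving out TNFKO LPS mouse 11 or 12 also gave 3. Vdr was at 130 ± 14 (SD, n = 4) in TNFKO LPS mice, 0.86 above LPS (limma adjusted p = 3.4e-05), and Pth1r at 166 ± 9.72. Cyp24a1, which breaks down vitamin D, was at 57.5 ± 5.13 in PBS, 33.5 ± 19.6 in LPS and 7.99 ± 4.84 in TNFKO LPS mice, lower in TNFKO LPS than in LPS mice (limma adjusted p = 9.3e-05), where Kl was higher. Slc34a3, like Slc34a1, was not called between genotypes (-0.24, adjusted p = 0.48 in limma).

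Of 14 transcription factors of tubule cells 9 were lower by LPS and 1 higher (median -0.89), and 9 were higher and 1 lower in TNFKO LPS than in LPS mice (10 lower and 8 higher without mice 5, 6 and 9). Hnf4a, a factor of proximal tubule identity, fell from 293 ± 26.2 (SD, n = 4) to 96.8 ± 44 and was at 189 ± 19.9 in TNFKO LPS mice. The mitochondrial coactivator Ppargc1a fell from 101 ± 10.3 to 30 ± 19.9 and was at 93.1 ± 20.4 in TNFKO LPS mice. Pax8, a factor of the whole tubule, rose from 59 ± 4.25 to 127 ± 28.8. The 5 tubule injury markers named above were all called higher by LPS (median 3.52), and 3 of them were lower in TNFKO LPS than in LPS mice (median -1.54). Of 3 podocyte markers with a row 1 was lower by LPS, with sums of 158 to 179 in PBS and 109 to 160 in LPS kidneys.

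**Figure D3:**
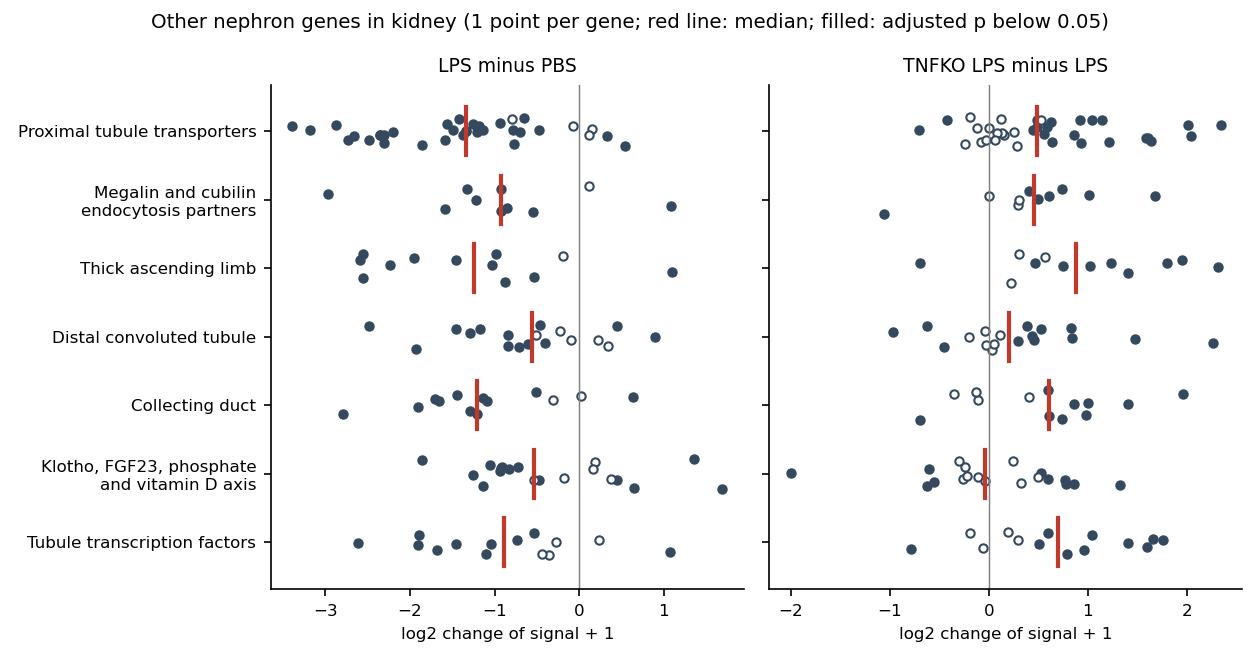
Log2 change of signal + 1 in kidney for the other genes of each list (1 point per gene, filled where the limma adjusted p is below 0.05; red line, list median), for LPS minus PBS and TNFKO LPS minus LPS. The medians lie at -1.34 for proximal transporters and -1.25 for the thick ascending limb in the left panel, and at 0.49 and 0.89 in the right panel.

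The nearest genes to each of the 9 over the 12 kidney libraries were found by the root mean square difference of log2(signal + 1), each taken relative to its PBS mean, among 8911 genes. These had a PBS kidney mean of at least 10, and the 9 genes and genes with Gm or Rik symbols were left out. The nearest to Slc34a1 was Ass1, which makes argininosuccinate for arginine synthesis (difference 0.169; 1737 ± 119, 346 ± 39.8 and 333 ± 61.2 in PBS, LPS and TNFKO LPS mice). The nearest to Lrp2 were Slc22a18 (0.134) and the organic anion transporter OAT3, Slc22a8 (0.178; 535 ± 82, 203 ± 49.4 and 188 ± 10.8). OAT1, Slc22a6, had Mfsd4b5 (0.232) and the neutral amino acid transporter Slc6a19 (0.235; 168 ± 5.9, 29.6 ± 4.93 and 91.9 ± 9.84) as neighbours. For Kl they were the protease gene Cela1 (0.21) and sorbitol dehydrogenase, Sord (0.259; 758 ± 45.3, 107 ± 17.2 and 228 ± 46.9). The Slc12a3 pattern was met by Ldhb (0.105) and the mitochondrial mt-Co3 (0.117), and that of Umod by Dcaf6 (0.0839). Slc5a12 had no gene nearer than 0.779. Its LPS kidney libraries rest on 0 to 10 counts, and the part of counting error in this distance was not tested. These measures describe the 12 libraries and hold no test.

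Promoters were read for the genes that fell together and for Umod, whose fall was not called. RefSeq promoter sequences (GRCm38.p6) were matched for 8 of the 10 genes, all but Slc5a2 and Slc5a12. Starts are those of the RefSeq table and differ from the ends of the gene spans given above. Among the genes with a stretch shown, the starts of Slc34a1, Slc12a1, Lrp2 and Umod lie inside the span. That of Cubn lies outside it. The span of Slc34a1 begins with another transcript. The 250 bases before each start were searched on both strands for the palindrome of HNF1, GTTAATNATTAAC (12 fixed letters, at most 3 mismatches), and for the HNF4 site CAAAGTCCA (at most 1 mismatch), the letters of the proximal tubule factors HNF1 and HNF4. No promoter of the 8 held both matches. The stretches with a match are shown with the match in capitals.
Slc34a1, HNF1, chr13:55399528-55399587, plus strand: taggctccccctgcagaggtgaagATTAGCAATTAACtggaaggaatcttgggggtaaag
Cubn, HNF1, chr2:13492031-13492090, minus strand: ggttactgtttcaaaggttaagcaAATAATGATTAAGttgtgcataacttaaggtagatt
Slc12a1, HNF1, chr2:125152366-125152425, plus strand: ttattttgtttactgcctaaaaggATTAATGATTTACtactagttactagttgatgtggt
Umod, HNF1, chr7:119479429-119479488, minus strand: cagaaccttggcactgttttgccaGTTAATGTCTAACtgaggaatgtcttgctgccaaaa
Lrp2, HNF4, chr2:69586150-69586209, minus strand: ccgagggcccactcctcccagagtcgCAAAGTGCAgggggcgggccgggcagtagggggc

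An HNF1 match with at most 3 mismatches was in 4 of the 8 promoters, Slc34a1, Cubn, Slc12a1 and Umod, and in 7.58% of all 32851 promoters of the same length. Slc12a1 and Umod had 2 mismatches (1.24% of all promoters have at most 2). The HNF4 match of Lrp2 had 1 mismatch, which 7.05% of all promoters reach. Slc22a6, Slc12a3 and Kl had neither match in this window. A match is a description of letters: Slc12a1, which fell, and Umod, which was not called, share it, and no binding was measured.

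Outside the kidney the 9 genes were read at a low level in most tissues, with the exceptions described below. Leaving out the inguinal lymph node, the median over 13 other tissues of a gene's group mean was 0.654% to 1.53% of its kidney level in PBS mice. It was 0.716% to 1.56% of the same PBS kidney level in LPS mice and 0.689% to 1.7% in TNFKO LPS mice, although the kidney level itself fell. Slc34a1, for example, had a median of 15 in PBS, 14.6 in LPS and 14.6 in TNFKO LPS mice outside the kidney, beside kidney means of 2019, 417 and 449. For Umod the medians were 29.9, 32.8 and 35.2. The source of this low level was not tested.

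In these 13 tissues 74 pairs of gene and tissue had a mean signal of at least 5 in PBS or in LPS mice. Of these, 4 were called higher and 3 lower by LPS. Of all gene and tissue tests, which had no such cut, 8.92% and 9.34% were called. Between genotypes none of the 74 was called in either direction in limma (2.59% higher and 2.04% lower over all genes). At an unadjusted p below 0.05, 5 pairs were higher and none lower, and edgeR called none of the 28 pairs in the 5 other tissues where it was run. The 3 pairs lower by LPS were Cubn and Slc5a12 in small intestine and Lrp2 in lung. The 4 higher ones were Cubn in liver, Umod in spleen and Lrp2 and Kl in bone marrow, with means of at most 42.8. Cubn in liver and Kl in bone marrow reached the cut of 5 only in LPS mice. The cut thus favours a higher call for these pairs. Cubn in liver had 1.87 ± 1.52 (SD, n = 4) in PBS and 5.88 ± 1.08 in LPS mice. There 1 count was worth 1.73 to 2 in PBS and 1.25 to 1.36 in LPS livers, so this call lies near the floor. Kl in bone marrow was also low, at 2.14 ± 0.491 in PBS and 6.41 ± 0.955 in LPS mice. In bone marrow the other kidney markers were also higher, at a sum of 270 to 297 in PBS and 390 to 686 in LPS mice, and their part in these calls was not tested. Without PBS mouse 1 the higher pairs were 2 in place of 4. Between genotypes the count of 0 became 1 without TNFKO LPS mouse 9 (Lrp2 in lung, 0.59) or mouse 10 (Cubn in small intestine, 1.05), and 2 without mouse 12, Slc12a3 in bone marrow (0.88) among them.

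Levels stood out from the other tissues in 5 pairs (a PBS mean of at least 10 and at least 2 times the median of the 13 tissues, a rule chosen after the values were seen). Cubn, which takes up vitamin B12 in the ileum, read 121, 143, 196 and 155 in small intestine of PBS mice, against a median of 2.95 over the tissues. It read 19.9, 13.2, 4.76 and 16.7 in LPS mice and 28.1, 10.8, 28.7 and 22.8 in TNFKO LPS mice. The fall was -3.53 (SE 0.31, limma adjusted p = 3.5e-08), and both LPS groups lay below every PBS library. Slc5a12 read 20.4, 30.4, 30 and 24.2 there in PBS mice and 8.43, 9.78, 1.36 and 10.4 in LPS mice (-1.90, SE 0.37, limma adjusted p = 0.00062). Intestine markers (5 of 5 with a row) summed to 10718 to 15085 in PBS and to 1898 to 4421 in LPS small intestines. Their part in these falls was not tested.

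Lrp2 in lung, where epithelial cells carry megalin, read 55.1, 56.2, 60.4 and 52.1 in PBS mice and 19, 19, 15.9 and 17.7 in LPS mice (-1.59, SE 0.18, limma adjusted p = 7.9e-08). TNFKO LPS mice had 16.8, 28.4, 28 and 25.9, overlapping the LPS mice. The 4 lung markers summed to 84988 to 92003 in PBS and to 52224 to 65689 in LPS lungs, and their part was not tested. Kl in brain, where the choroid plexus makes it, read 19.3, 14.2, 16.2 and 15.9 in PBS and 7.68, 20.3, 16.3 and 12.7 in LPS mice, with overlap and no call. Choroid plexus markers (3 of 5 with a row) summed to 1328 to 1833 in PBS and to 1106 to 1391 in LPS brains. Slc12a3 in bone marrow read 14.4, 25.7, 21.9 and 14.5 in PBS and 20.9, 28.6, 22.7 and 14.3 in LPS mice, again overlapping.

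The difference between the change in kidney and that in another tissue was tested for 44 pairs. These had a mean of at least 10 in PBS or in LPS mice of the other tissue. In 27 pairs the kidney change was the more negative and in none the more positive (8.4% and 6.58% over all genes in limma), and the count was 27 with mouse as a replicate block. Most of these pairs set a fall in kidney against a level elsewhere that was not called. Most were also pairs of Lrp2 or Slc34a1. Of the 27, Lrp2 in bone marrow, small intestine and brain and Slc12a3 in spleen reached the cut of 10 only in LPS mice. For these the cut favours a more negative difference. Slc34a1 in small intestine reached it only in PBS mice. The shares over all genes had no such cut. All pairs of a gene reuse the same kidney libraries, so the count does not stand for separate results. For the pairs that stood out, the Kl change was lower in kidney than in brain by 2.60 on the log2 scale (-2.60, SE 0.61, adjusted p = 0.0007 in limma), and the Slc5a12 change lower than in small intestine (-2.34, SE 0.61, adjusted p = 0.0026). The latter was lost without mouse 5, whose kidney read 0 (-1.54, adjusted p = 0.091 in limma), and with a pseudocount of 0.25 (-2.78, 0.11). For Lrp2 in lung the difference was 0.02 (SE 0.43, limma adjusted p = 0.99), for Cubn in small intestine 1.45 (SE 0.68, 0.14) and for Slc12a3 in bone marrow -0.92 (SE 0.48, 0.21).

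**Figure D4:**
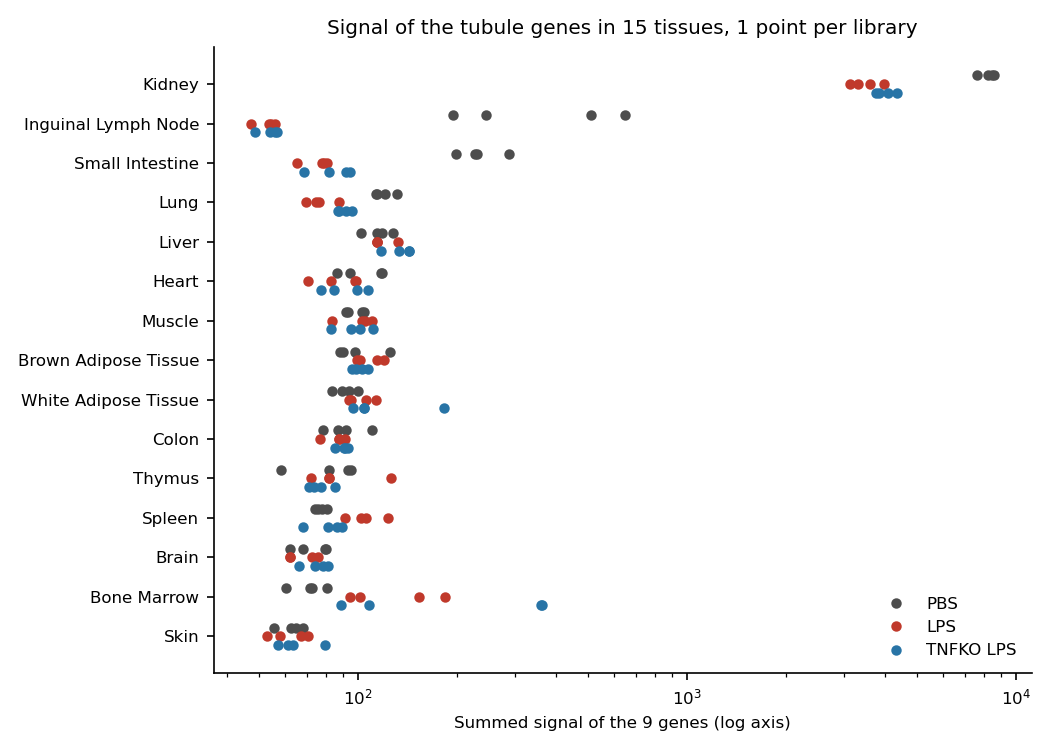
Summed signal of the 9 genes in each library of 15 tissues (1 point per library, logarithmic axis, coloured by group). PBS inguinal lymph nodes lie at 194 to 649, above the LPS and TNFKO LPS nodes at 47.3 to 56.6, and TNFKO LPS bone marrow holds libraries at 361 and 359.

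The inguinal lymph node, a lymphoid organ of the groin with no tubule cells, held the highest median of summed signal of these genes outside the kidney in PBS mice. These libraries were singled out with their values known, so the levels are a description with no test. The summed signal of the 9 genes was 245, 194, 510 and 649 in lymph nodes of PBS mice 1 to 4, resting on 426, 434, 1375 and 1531 counts. It was 47.3 to 55.8 in LPS mice and 48.7 to 56.6 in TNFKO LPS mice. Mice 3 and 4 were higher than mice 1 and 2, and all 4 lay above all 8 other libraries.

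Gene by gene, Umod read 75.4, 53.6, 132 and 166 in PBS lymph nodes and 17 to 24.6 in the other groups. Lrp2 read 54.7, 50.9, 126 and 156, Slc34a1 54.1, 38.4, 105 and 148, and Slc12a1 16.1, 16.5, 49 and 63.6. For 8 of the 9 genes each PBS library was above every LPS and TNFKO LPS library, as for 5.99% of 13074 genes. The exception was Kl, at 5.8 in PBS mouse 2 beside up to 6.08 in LPS and 6.34 in TNFKO LPS mice. The PBS mean was 3.57 to 13 times the LPS mean over 8 genes. Slc5a12, with 2 to 22 counts in PBS nodes and 0 or 1 in the others, is not part of that range.

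The share of the kidney signal found in the node differed between PBS mice and, within a mouse, between genes. As a share of the same mouse's kidney signal, the 9 genes stood at 2.36% to 3.62% in mouse 1 (median 2.94%), 1.37% to 3.11% in mouse 2 (2.25%), 4.53% to 7.57% in mouse 3 (6.24%) and 6.76% to 11.4% in mouse 4 (8.59%). A further 38 genes with a PBS kidney mean of at least 100 and at least 20 times that of each of the 13 tissues had medians of 2.7%, 2.13%, 5.48% and 7.58% in the same mice. In lymph nodes of LPS mice the median share of the same mouse's kidney was 1.5% to 2.23%, and in TNFKO LPS mice 1.3% to 1.85%, just below that of PBS mouse 2, but 8 of the 9 kidney levels in the denominator had fallen. Against the mean of PBS kidneys the medians were 2.24% to 7.78% in PBS, 0.53% to 0.754% in LPS and 0.488% to 0.611% in TNFKO LPS nodes. Lymph node markers (8 of 8 with a row) summed to 1417 to 1755 in the PBS nodes and to 1293 to 1805 in the others. The other kidney markers summed to 483 to 1202 in PBS and to 222 to 317 in the other nodes. Adrenal cortex markers stayed at 3.39 to 8.52 in all 12 nodes, and liver markers at 482 to 724 apart from 5025 in PBS mouse 1. The same library had the highest sum of choroid plexus markers (203, against 41.1 to 68.6 in the other 11 nodes), a list that shares Ttr with the liver list. Its sums of skeletal muscle markers (600, against 395 to 484) and brain markers (234, against 140 to 168) were also the highest. The source of this signal was not tested.

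**Figure D5:**
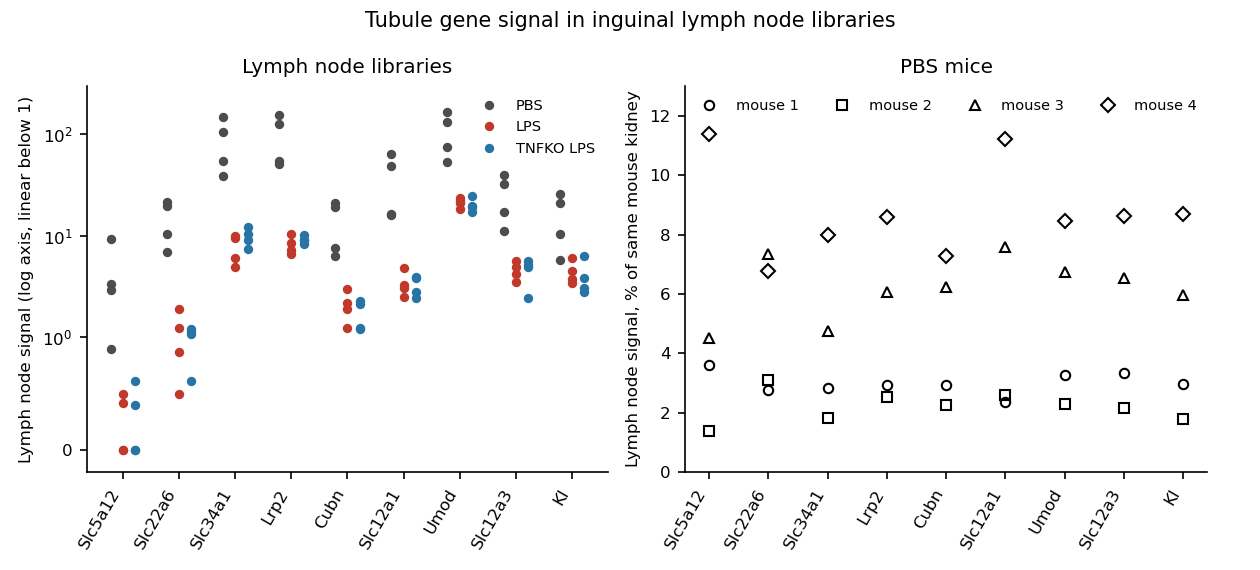
Left, signal of each gene in the inguinal lymph node libraries (logarithmic axis, linear below 1); right, lymph node signal of PBS mice 1 to 4 as a percentage of the same mouse's kidney signal (linear axis). In the right panel mice 3 and 4 lie above mice 1 and 2 for all 9 genes, from Slc5a12 to Kl.

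Bone marrow of TNFKO LPS mice 10 and 11 also stood apart. Umod read 157 and 171 there, against 32.6 and 33.3 in TNFKO LPS mice 9 and 12, 33.3 to 87.8 in LPS mice and 18 to 31.5 in PBS mice. Lrp2 read 71.7 and 61.3 beside 13.4 and 14.6, and Slc34a1 54.8 and 37.4 beside 15.3 and 10.8. The 9 genes had medians of 2.83% and 2.53% of their PBS kidney mean in these libraries, of 0.879% and 0.751% in mice 9 and 12, of 1.11% to 2% in LPS mice and of 0.579% to 0.642% in PBS mice. Other kidney markers summed to 1045 and 839 in mice 10 and 11, to 436 and 396 in mice 9 and 12, to 390 to 686 in LPS marrow and to 270 to 297 in PBS marrow, and adrenal cortex markers to 60.3 in mouse 11 and at most 8.53 in the other 11 marrows. Their part was not tested.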

How the data were processed

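The deposited table holds a signal per gene and library that the authors named CPM, per the file headers; the signals of a library sum to 703690 to 1603067, not to a fixed total. Tags carried a sample barcode and a 10-bp unique molecular identifier, per the labels' protocols. The submitters' processing notes name FastQC, MultiQC, edgeR and mm10; for the aligner, the name was not given in the sources used here. In all 180 libraries every deposited signal was within 0.1 of a whole multiple of the signal of 1 count; total counts were 311128 to 2573806 per library, and 1 count was worth 0.322 to 3.6.

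Each tissue was fitted with limma 3.58.1 (R 4.3.3, trend) on log2(signal + 1), a scale that understates changes of low genes, keeping genes that reached a signal of 1 in 4 or more of the 12 libraries. All 3 groups entered the fit, which left 9 residual degrees of freedom, and p-values were adjusted (Benjamini-Hochberg) over all genes. Changes in kidney and another tissue were compared in 1 fit of all 180 libraries. Mouse numbers tie the tissues of 1 mouse together and do not pair mice across groups; with mouse as a block the consensus correlation was 0.0159. Counts were tested with edgeR 4.0.16 in kidney and 5 other tissues; it was not run in 8 tissues, which hold 9 libraries that did not pass an automated check of this recovery. Confidence intervals are those of limma, from the spread between mice, and limits for 0 counts cover counting error only. The scripts were tested on simulated data.

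Named list genes had a mean of at least 10 in a group compared and were the 4 largest changes of a list, those against its direction, or, for the endocytosis and Klotho lists, all members. The 9 genes and the lists were chosen with earlier results of these data known. Alternatives were the pseudocount, the filter, the scaling, edgeR, fewer groups and left-out mice; leaving out mice 5, 6 and 9 together was added after the data were seen. Slc5a2 is not analysed here.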

Additional observations from a re-analysis of the deposited data

Results flagged for a closer look

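Of 69 groups of 4 libraries examined (the 9 genes in kidney and lymph node and the 5 pairs that stood out elsewhere), 3 held 1 library far from the other 3, where chance gives about 1 in 20. These 3 were TNFKO LPS kidney groups: Slc5a12 at 12.3 in mouse 11 (16.4 to 16.9 in the others), Lrp2 at 525 in mouse 10 (680 to 709) and Umod at 1728 in mouse 9 (2080 to 2121). Between tissues, the change by LPS differed for Slc5a12 between kidney and small intestine (-2.34, kidney minus small intestine, adjusted p = 0.0026 in limma), a call lost without mouse 5, and for Kl between kidney and brain (-2.60, adjusted p = 0.0007 in limma).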

How the results depend on the processing

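No result changed from a call in one direction to a call in the other under any setting run. In kidney, leaving out 1 mouse gave 8 to 9 genes lower in LPS than in PBS mice, 4 to 5 higher and 0 lower in TNFKO LPS than in LPS mice, and 8 lower in TNFKO LPS than in PBS mice. In the other tissues it gave 2 to 5 pairs higher and 3 lower by LPS, and 0 to 2 higher and 0 lower between genotypes. In the 5 other tissues where edgeR was run, it called 1 pair higher by LPS where limma called 2; the cause was not tested. With mouse as a replicate block, 27 pairs had the lower change in kidney, as without it, and no call among the named pairs changed. Leaving out 1 mouse gave 23 to 27 of these pairs. Between TNFKO LPS and PBS mice, counts for 4 lists moved by over 1.5 times: the collecting duct went from 5 to 8 lower with 2 groups only, tubule factors from 2 to 4 lower (2 groups only, edgeR or without LPS mouse 6), and the thick ascending limb from 5 to 3 (without mouse 1, 2, 3, 9 or 10) and the distal list from 6 to 3 (without mouse 1). Depth limits Slc5a12 most, which rests on 0 to 10 counts in LPS kidneys.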

Other observations

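Against PBS mice, the gene lists of the tubule differed in how many members were still lower in TNFKO LPS kidneys in limma. Of the other proximal transporters 22 of 35 were lower and 2 higher, of the endocytosis partners 6 of 10, of the thick ascending limb list 5 of 12, of the distal list 6 of 18, of the collecting duct list 5 of 13 and of the tubule transcription factors 2 of 14, where 9% of all genes were called lower. Without mice 5, 6 and 9 the counts lower were 25, 6, 5, 8, 7 and 2 in the same order. Whether the lists differ from each other was not tested. Hnf4a was at 189 ± 19.9 (SD, n = 4) against 293 ± 26.2 in PBS mice, Egf at 475 ± 67.3 against 1320 ± 75.1, and Cyp24a1 at 7.99 ± 4.84 against 57.5 ± 5.13. The phosphate importers Slc20a1 (49.8 ± 9.45 against 22.9 ± 4.98) and Slc34a2 (28.4 ± 5.99 against 12.7 ± 1.79) were higher than in PBS mice, and Vdr was at 130 ± 14 against 128 ± 6.62.

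Summed over the 9 genes, white adipose tissue of TNFKO LPS mouse 12 had a signal of 182.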
